A study of Mus musculus with 6 samples.

Results

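The genes described here are 9 mouse genes that encode Fc gamma receptors and subunits of the phagocyte NADPH oxidase. They were taken as a list by symbol: the receptor genes Fcgr1, Fcgr2b, Fcgr3 and Fcgr4, the shared signalling subunit Fcer1g, and the oxidase genes Cybb, Cyba, Ncf1 and Ncf4. All 9 were found among the 32371 genes of the count table, and all 9 passed the filter on low counts that left 18138 genes. The RNA-Seq compared adult C57BL/6J mice that received intravitreal AAV2-GFP (3 libraries) or AAV2-Ezh2-Y726D (3 libraries), the latter carrying a catalytically dead mutant of the histone methyltransferase Ezh2. Both groups underwent optic nerve crush (ONC) 2 weeks after the injection, and retinal cells were sorted 3 days after ONC. Both groups therefore carried an AAV2 vector and an injured nerve, and neither carried a change of the mouse's own Ezh2 gene. The sources used here do not give a cell type-specific promoter for these vectors, and uninjured or uninjected retinas were not analysed here.

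Fc gamma receptors bind the constant part of IgG on the surface of myeloid cells. The activating receptors pair with the Fcer1g chain, whose ITAM is phosphorylated by Src family kinases and recruits Syk, whereas Fcgr2b carries an inhibitory ITIM that recruits the lipid phosphatase Inpp5d. Engaged receptors drive uptake of the coated particle and assembly of the NADPH oxidase, in which the membrane pair Cybb and Cyba is joined by cytosolic subunits, among them Ncf1 and Ncf4, and by Rac, and which makes superoxide. In the retina these genes are known mainly, though not all of them only, from microglia and from blood-derived myeloid cells rather than from neurons.

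The cells were labelled retinal ganglion cells (RGCs) and were enriched by a sort for CD90.2, the product of Thy1. Before the stain, per the study's methods, Fc receptors were blocked with an antibody to CD16/CD32, the products of Fcgr3 and Fcgr2b. The 9 genes were thus measured in a sort made for another surface protein, and the products of Fcgr3 and Fcgr2b were covered by antibody before it. In bulk libraries, fewer cells of a type and less RNA per cell cannot be told apart. Thy1 lay between 99.7 and 111 CPM (counts scaled to library size by edgeR with TMM factors) with GFP and between 112 and 122 CPM with Ezh2-Y726D, and was not called. Ezh2 rose from 22.7, 23.9 and 26.4 CPM to 65.2, 65.6 and 65.2 CPM (log2 fold change 1.46, standard error 0.061, Benjamini-Hochberg adjusted P = 3.01e-16, edgeR quasi-likelihood test), and its counts do not separate vector from endogenous transcripts.

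Depth was uneven. Total counts ran from 9333244 to 23782520 per library, and 1 rRNA gene, CT010467.1, held 50.9% of GFP replicate 2, 52.2% of GFP replicate 3 and between 2.55% and 16.1% of the other 4 libraries. Every library pair within a group differed by more than counting noise (chi-square per degree of freedom 1.49 to 3.03), so none was a copy of another. Whether a library holds cells of 1 or several mice is not given in the sources used here, and P values measure the spread between these libraries. The 9 genes had between 66 and 2012 counts per library.

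The promoters of 3 members are shown because the members moved together: Fcgr1 and Fcgr4, whose windows hold a match to a motif searched, and Cybb, the member with the largest fall, whose window holds none. RefSeq (GRCm38.p6) gave a window of 250 bases before to 50 after the start for 8 of the 9 genes, and the part before the start is printed, 5′ to 3′ on the gene's strand, with motif matches in capitals.
Fcgr1: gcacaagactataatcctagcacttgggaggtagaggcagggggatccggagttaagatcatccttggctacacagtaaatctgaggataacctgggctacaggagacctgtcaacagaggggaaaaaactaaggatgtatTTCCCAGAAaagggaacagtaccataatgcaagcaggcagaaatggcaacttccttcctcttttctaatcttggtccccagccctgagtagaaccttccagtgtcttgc
Fcgr4: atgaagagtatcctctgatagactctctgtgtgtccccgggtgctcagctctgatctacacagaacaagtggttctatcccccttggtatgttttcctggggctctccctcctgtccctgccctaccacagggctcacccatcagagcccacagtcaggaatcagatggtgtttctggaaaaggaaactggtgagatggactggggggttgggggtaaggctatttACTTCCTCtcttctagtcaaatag
Cybb: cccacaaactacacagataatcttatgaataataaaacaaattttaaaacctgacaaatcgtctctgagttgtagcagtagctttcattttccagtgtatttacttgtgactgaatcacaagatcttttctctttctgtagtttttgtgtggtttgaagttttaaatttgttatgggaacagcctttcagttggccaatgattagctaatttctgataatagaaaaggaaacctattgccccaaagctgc
The Fcgr1 window is chr3:96293970-96294219 (minus strand), the Fcgr4 window is chr1:171018676-171018925 (plus strand) and the Cybb window is chrX:9469325-9469574 (minus strand). Starts are those of RefSeq and can differ from the GENCODE gene limits given below. The Cybb window lies within the GENCODE limits of Cybb, and 6 bases of the Fcgr4 window lie in GENCODE exons. The motifs searched, on both strands, were GAGGAAGT, letters bound by the myeloid factor PU.1, and a composite of PU.1 and IRF factors, GGAA followed after any 2 bases by GAAA. The third was TTCNNNGAA, the GAS element of interferon gamma-responsive genes. The capitals of Fcgr1 are a GAS match, TTCCCAGAA, that begins 109 bases before the start. Those of Fcgr4 are ACTTCCTC, the PU.1 letters read on the other strand, 24 bases before the start. Among the windows not printed, Fcgr2b held a composite match that begins 35 bases before its start and Ncf1 a GAS match (TTCTCAGAA) that begins 88 bases before, while Fcgr3, Fcer1g and Cyba held no match. Over all 32851 windows, 2.44% held the PU.1 letters, 2.3% the composite letters and 7.02% the GAS letters. A match describes letters in a window and is not evidence of binding.

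All 9 genes fell with Ezh2-Y726D, by 1.76-fold (Fcgr3) to 2.79-fold (Cybb), and in each of them every GFP library lay above every Ezh2-Y726D library. All 9 were called lower (fold change over 1.5 at an adjusted P under 0.05) by edgeR and also by DESeq2. Over all genes tested, 5.5% were called lower and 2.52% higher, 8.02% in either direction, and 38.6% had groups that did not overlap, 18.9% with Ezh2-Y726D below. The members' median log2 fold change was -0.96, beside 0.00 over all genes tested. Of all 1455 genes called, 68.6% were lower. Library totals in place of TMM scaling left far fewer calls, 19 lower and 46 higher, of which 29.2% were lower. With library totals none of the 9 was called, at log2 fold changes of -0.96 to -0.27, adjusted P = 0.319 to 0.586, and the median of all genes shifted to 0.49. Relative to that median the members stood at -1.45 to -0.77. With library totals that left out CT010467.1, all 9 were called lower.

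**Figure D1:**
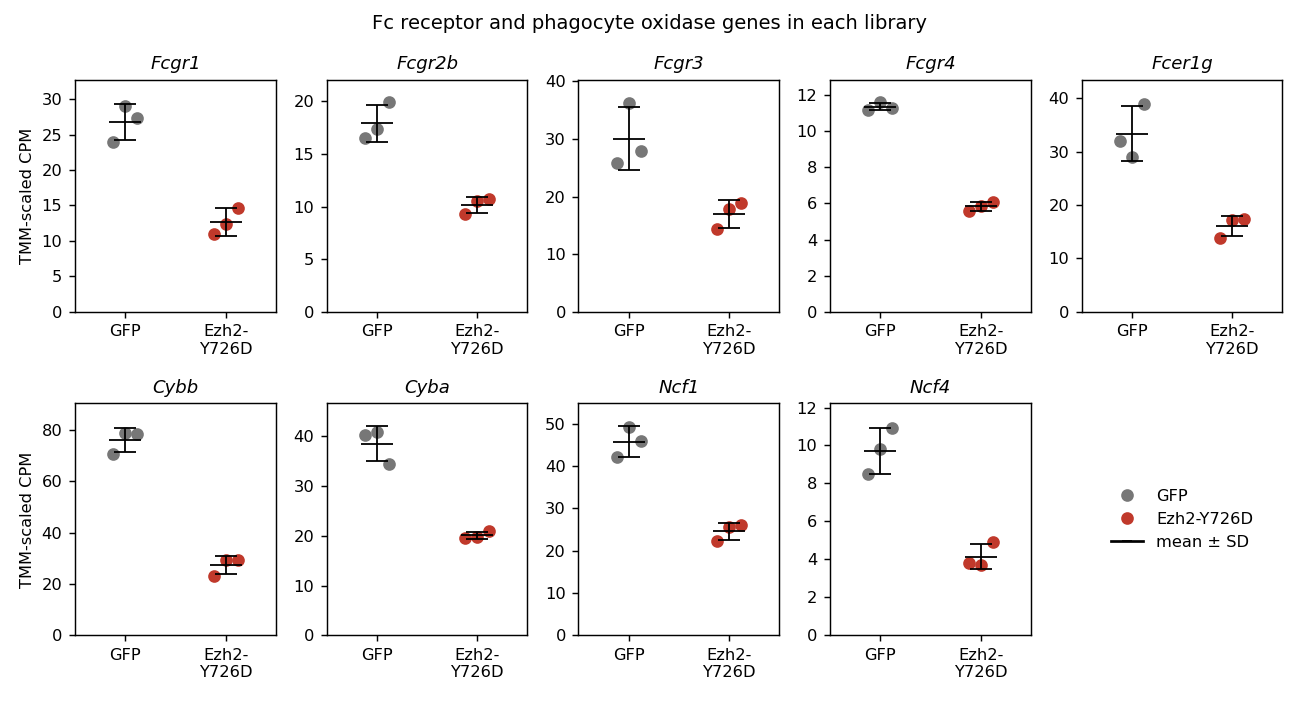
Level of each of the 9 genes in every library, in CPM of the TMM-scaled library on linear axes from 0, with GFP libraries in grey and Ezh2-Y726D libraries in red, and bars for mean ± SD of 3 libraries. Every grey point lies above every red point in each panel, most widely for Cybb.

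The high-affinity IgG receptor Fcgr1 (ENSMUSG00000015947, chr3:96282909-96293969, minus strand) was at 23.9, 29.0 and 27.4 CPM in GFP replicates 1, 2 and 3. It was at 10.9, 12.4 and 14.7 CPM in Ezh2-Y726D replicates 1, 2 and 3. Every GFP library was clearly above every Ezh2-Y726D library, with the lowest GFP value 1.62 times the highest Ezh2-Y726D value. The mean fell from 26.8 ± 2.62 to 12.7 ± 1.92 CPM (SD, n = 3 each), a log2 fold change of -1.02 with a standard error of 0.095 (edgeR quasi-likelihood, adjusted P = 1.64e-09).

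The activating receptors Fcgr3 and Fcgr4 bind IgG complexes with lower or intermediate affinity and both need Fcer1g at the cell surface. Fcgr3 (ENSMUSG00000059498, chr1:171051174-171064935, minus strand) measured 25.9, 36.2 and 27.9 CPM with GFP and 14.3, 17.9 and 18.8 CPM with Ezh2-Y726D. Its GFP replicate 2 was the high one, and the gap between groups was the narrowest of the 9 genes, 1.37 times. The log2 fold change was -0.76 (standard error 0.0997, edgeR quasi-likelihood adjusted P = 6.66e-07). Fcgr4 (ENSMUSG00000059089, chr1:171018920-171029761, plus strand) measured 11.2, 11.6 and 11.3 CPM with GFP and 5.6, 5.83 and 6.07 CPM with Ezh2-Y726D. Its GFP replicates lay closest together of the 9 genes, with a coefficient of variation of 1.94%, and the groups did not overlap. Its log2 fold change was -0.95 (standard error 0.107, edgeR quasi-likelihood adjusted P = 4.96e-08).

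Fcgr2b, the inhibitory receptor (ENSMUSG00000026656, chr1:170958617-170976547, minus strand), was at 16.5, 17.4 and 19.9 CPM with GFP and at 9.28, 10.5 and 10.7 CPM with Ezh2-Y726D. The groups were apart, at 17.9 ± 1.77 and 10.1 ± 0.756 CPM (SD, n = 3 each). This gave a log2 fold change of -0.78 with a standard error of 0.093 (edgeR quasi-likelihood, adjusted P = 1.5e-07). The inhibitory receptor thus fell beside the activating ones, and its count relative to the summed counts of Fcgr1, Fcgr3 and Fcgr4 was 0.27, 0.227 and 0.299 with GFP and 0.301, 0.29 and 0.269 with Ezh2-Y726D. Those ratios overlapped, and their log2 difference was 0.12 (exact permutation test over libraries, 2-sided P = 0.5). It was 0.009 without GFP replicate 2 and 0.21 without GFP replicate 3. Fcgr2b and Fcgr3 are similar in sequence: 6.95% of the stretches of 50 bases in Fcgr2b occur in other genes, and 9.58% of those in Fcgr3 occur in Fcgr2b, so a small part of their reads could be split between them.

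Fcer1g, the ITAM-bearing chain (ENSMUSG00000058715, chr1:171229572-171234365, minus strand), was at 32.0, 29.0 and 39.0 CPM with GFP and 13.8, 17.1 and 17.3 CPM with Ezh2-Y726D. GFP replicate 3 was the highest and the lowest Ezh2-Y726D library was replicate 1, and the groups did not overlap. The fall was -1.03 on the log2 scale (standard error 0.087, edgeR quasi-likelihood adjusted P = 2.96e-10). Counts of the chain relative to its 3 receptors were 0.524, 0.378 and 0.586 with GFP and 0.446, 0.471 and 0.435 with Ezh2-Y726D, ranges that overlapped (log2 difference -0.11, exact permutation 2-sided P = 0.6). Without GFP replicate 3 that difference was 0.02, so its direction depended on this library.

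The catalytic subunit of the oxidase, Cybb (gp91phox; ENSMUSG00000015340, chrX:9435252-9487771, minus strand), moved the most. It was at 70.6, 78.9 and 78.5 CPM with GFP and 23.2, 29.2 and 29.3 CPM with Ezh2-Y726D. The lowest GFP library was 2.41 times the highest Ezh2-Y726D library. Its mean went from 76.0 ± 4.69 to 27.2 ± 3.51 CPM (SD, n = 3 each), a log2 fold change of -1.46 with a standard error of 0.071 (edgeR quasi-likelihood, adjusted P = 7.06e-15). Cybb is X-linked. Xist had at most 3 counts in every library and the Y-linked Ddx3y lay between 58.1 and 69.2 CPM in all 6, without a call.

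Cyba (p22phox; ENSMUSG00000006519, chr8:122424776-122432930, minus strand) encodes the partner that holds Cybb in the membrane. Its levels were 40.2, 40.9 and 34.5 CPM with GFP and 19.6, 19.8 and 20.9 CPM with Ezh2-Y726D. The GFP libraries were all higher, and the log2 fold change was -0.96 (standard error 0.066, edgeR quasi-likelihood adjusted P = 5.7e-12). The count ratio of Cybb to Cyba was 1.76, 1.93 and 2.27 with GFP and 1.18, 1.48 and 1.4 with Ezh2-Y726D. These did not overlap, with a log2 difference of -0.55 and the smallest P that 3 libraries against 3 allow (exact permutation, 2-sided P = 0.1).

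The cytosolic organiser Ncf1 (p47phox; ENSMUSG00000015950, chr5:134220053-134229625, minus strand) was at 42.0, 49.3 and 45.8 CPM with GFP and 22.3, 25.5 and 26.0 CPM with Ezh2-Y726D. The groups were apart, and the fall was -0.86 on the log2 scale (standard error 0.069, edgeR quasi-likelihood adjusted P = 1.06e-10). Of its exonic bases, 11.1% overlap Gtf2ird2 on the other strand and 7.45% of its 50-base stretches occur in other genes. Whether counting used the strand is not stated, and Gtf2ird2 itself was not called (log2 fold change 0.16, edgeR adjusted P = 0.123).

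Ncf4 (p40phox; ENSMUSG00000071715, chr15:78244801-78262580, plus strand), which binds phosphoinositides of the phagosome, had the lowest CPM of the 9. It was at 8.49, 9.8 and 10.9 CPM with GFP and at 3.8, 3.72 and 4.91 CPM with Ezh2-Y726D. Both ranges lay apart, with a 2.35-fold lower mean (log2 fold change -1.14, standard error 0.137, edgeR quasi-likelihood adjusted P = 1.48e-07). No RefSeq promoter window was held for Ncf4.

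Summed over their members, the receptors stood at 109 to 125 CPM with GFP and 53.9 to 67.6 CPM with Ezh2-Y726D, and the oxidase genes at 161 to 179 and 68.9 to 81.1 CPM. On a per-length scale (CPM per kb of exonic length), the GFP order was led by Fcer1g at 38.1 and Cyba at 37.1, whose ranges overlapped. Fcgr3 followed at 17.3, then Cybb at 13.1 and Ncf1 at 12.5, overlapping each other. Fcgr1 at 10.3 and Fcgr4 at 9.04 overlapped, and Ncf4 at 4.82 and Fcgr2b at 3.1 were last. With Ezh2-Y726D, Cyba (19.3) and Fcer1g (18.3) again overlapped at the top, and Cybb, at 4.69, had come to lie below Ncf1 (6.72) and within the ranges of Fcgr1 (4.91) and Fcgr4 (4.64).

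Fcgr2b, Fcgr4, Fcgr3 and Fcer1g lie within 275.7 kb of chromosome 1. In a window reaching 100000 bases beyond them on either side, chosen after the values were seen, 15 other genes were tested. Only Fcrla, an Fc receptor-like gene of B cells, was called (lower, 1.38 ± 0.102 to 0.733 ± 0.115 CPM, log2 fold change -0.90, edgeR adjusted P = 0.0204, 9 to 39 counts per library). The other 14 genes were not called, and the median of all 15 was 0.04.

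**Figure D2:**
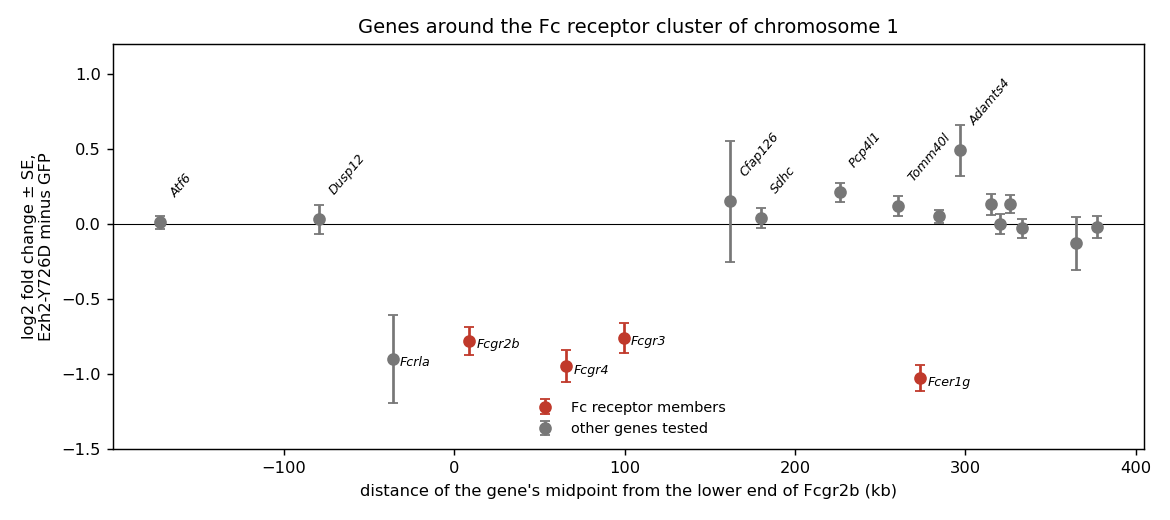
Log2 fold change (Ezh2-Y726D minus GFP, error bars ± standard error) of the 19 tested genes around the Fc receptor cluster, by distance of the gene's midpoint from the lower end of Fcgr2b in kb. The 4 member genes (red) and Fcrla lie between -1.03 and -0.76, while the other 14 (grey) lie between -0.13 and 0.49.

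Other Fc receptors were mostly too low to test. Of 11 listed genes, 4 were tested and 2 were called lower: Fcrls, an Fc receptor-like scavenger gene of microglia, at 1.26, 0.774 and 0.995 CPM against 0.301, 0.343 and 0.508 CPM, and Fcrl1, of B cells, at 2.17, 2.32 and 1.82 against 0.601, 1.13 and 1.22 CPM. Their log2 fold changes were -1.49 and -1.12 (edgeR adjusted P = 0.0017 and 0.00192). Counts per library were low, 6 to 36 for Fcrls and 11 to 62 for Fcrl1. The number called lower was 1 with DESeq2, with at least 10 counts in every library, after thinning or without GFP replicate 1. Fcgrt, the neonatal receptor, and Trim21, a cytosolic IgG receptor, were not called (log2 fold changes of -0.19 and -0.43). The list's median was -0.78, beside 0.00 over all genes.

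The companion adaptors of other receptors moved with them: Tyrobp, Cd247 and Hcst were all called lower (log2 fold changes -0.94, -0.84 and -0.79), but the groups of Hcst overlapped. The count called lower was 2 of 3 with DESeq2, with at least 10 counts in every library, after thinning, without GFP replicate 1 or without Ezh2-Y726D replicate 2. In the list of ligands, 8 immunoglobulin genes were tested. Besides the IgG heavy chains these included the heavy chains of IgA and IgM (Igha and Ighm), Igkc and Jchain. Of the 8, 2 were called lower by edgeR and 6 were not called, with a median of -0.14. DESeq2 called 0 lower, and 1 was called lower with at least 10 counts in every library or after thinning. Igha was 1 of the 2 called lower, at 118 to 151 CPM with GFP and 73.7 to 102 CPM with Ezh2-Y726D. Ighg1, the IgG1 heavy chain, was at 44 counts in all with GFP and 5 with Ezh2-Y726D, a ratio scaled for depth of 15.9 with an exact 95% counting interval of 6.33 to 51.5. Ighg2c, the predominant IgG2 chain of this strain, was at 56.7 to 74.8 CPM and 75.8 to 97.8 CPM, a log2 fold change of 0.38 that passed on P (edgeR adjusted P = 0.000447) and not on size. Jchain likewise passed on P alone, in the lower direction (log2 fold change -0.267, edgeR adjusted P = 0.000672). Of the 8 genes, 6 had a fold change below 0 and 2 at or above it.

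Downstream of the receptors, 14 of 25 signalling genes were called lower and 11 were not called, with a median of -0.69. They included the kinases Syk (-0.93 on the log2 scale), Lyn (-0.72), Fgr (-0.80) and Btk (-0.69). Scaffolds and exchange factors were Lat (-0.78), Lat2 (-0.59), Lcp2 (-0.89) and Vav1 (-0.95), the lipid kinase subunits were Pik3cd (-0.73), Pik3cg (-0.69) and Pik3r5 (-0.82), and regulators of actin were Rac2 (-0.81) and Was (-1.0). Of the 11 genes not called, Plcg2 (-0.54), Prkcd (-0.58) and Tec (-0.58) were lower at an adjusted P under 0.05 and missed the fold threshold, as did Vav2 (-0.21) and Cdc42 (-0.10), and Vav3 (0.31) and Src (0.14) were the 2 that were higher at that P. Fyn (0.00), Plcg1 (0.06), Gab2 (0.10) and Cbl (-0.04) were the other 4. Of the phosphatases that inhibitory receptors recruit, Inpp5d (-0.77) and Ptpn6 (-0.89) were called lower and Ptpn11 (0.14) was not.

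Of 8 other oxidase genes tested, 3 were called lower, among them Rac2 (-0.81) and the proton channel Hvcn1 (-0.77), and Rac1, Rap1a, Cybc1, Nox4 and Noxo1 (-0.15 to 0.11) were not. Among 15 genes that remove superoxide and peroxide, 3 were called lower (Sod3 at -0.77, Gpx3 at -0.63, Hmox1 at -0.67) and 12 were not called, with a median of -0.10.

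**Figure D3:**
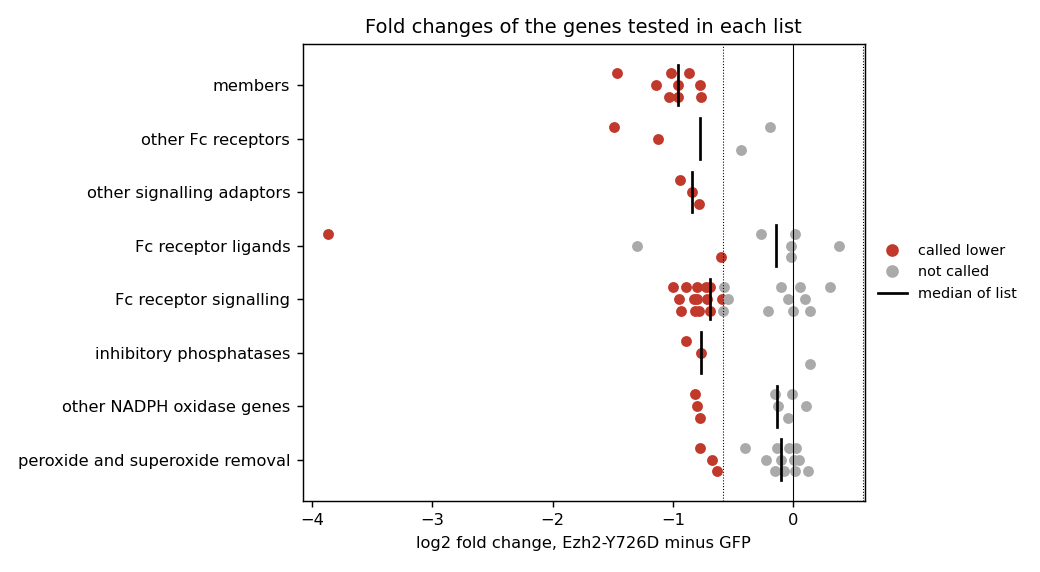
Log2 fold change (Ezh2-Y726D minus GFP) of the 9 members and of the tested genes of the pathway lists, 1 point per gene, red for called lower and grey for not called, with black bars at each list's median and dotted lines at a 1.5-fold change either way. All points of the members are red, whereas most of the other lists also hold grey points near 0, and the point farthest to the left is Ighg1, which rests on 5 counts in the Ezh2-Y726D group.

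Markers of the cells that could carry these genes were read in the same libraries. Of 10 markers of mononuclear phagocytes 7 were called lower and 3 were not called, with summed levels of 1050 to 1160 CPM with GFP and 446 to 517 CPM with Ezh2-Y726D (Lyz2 the highest). Monocyte and macrophage markers gave 6 of 7 tested lower, at 123 to 135 and 55.0 to 65.3 CPM (Ccr2 the highest, Cd163 at no more than 3 counts in every library). Of 8 microglia markers, Sall1 was called higher (0.61) and the other 7 were not called, with P2ry12 at 0.33 and 3 lower at an unadjusted P under 0.05. DESeq2 called 0 of them either way. Their sums were 285 to 317 and 235 to 278 CPM. Of the neutrophil markers only Csf3r was tested (-0.68, called lower), and S100a8, S100a9, Ly6g, Elane, Mpo, Retnlg and Cxcr2, which define the cell, had at most 3 counts in every library. T cell markers (7 of 8 lower, 131 to 132 and 73.6 to 82.0 CPM, Lck the highest) and NK cell markers (5 of 6 lower, 28.4 to 33.7 and 16.6 to 17.9 CPM, Gzma the highest) were also lower, and DESeq2 called 7 of the T cell and 4 of the NK cell markers lower. Of 5 B cell markers tested, 2 were called lower by edgeR and 0 by DESeq2. Their summed levels overlapped, but Ebf1 (log2 fold change 0.29) gave 79.8% to 92.3% of them, and without it, a choice made after the values were seen, the sums were 4.31 to 5.93 CPM with GFP and 2.22 to 3.58 CPM with Ezh2-Y726D and did not overlap. The part of these cells in the members' fall was not tested.

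Of 12 ganglion cell markers, 0 were called by edgeR or by DESeq2 (summed level 539 to 551 and 515 to 554 CPM, Nefl the highest), while 3 were lower and 2 higher at an unadjusted P under 0.05. Rod markers (5420 to 5560 and 5960 to 6150 CPM) and Müller glia markers (9930 to 10400 and 8800 to 9100 CPM, Glul the highest) were present in all libraries as well. The rod sums were higher with Ezh2-Y726D and the Müller glia sums lower, without overlap, with 0 of 7 rod markers called (4 higher at an unadjusted P under 0.05, 0 called by DESeq2) and 1 of 7 Müller glia markers called lower. Cone markers were lower with Ezh2-Y726D (4 of 6 called lower, median -0.63, summed level 354 to 370 and 233 to 243 CPM), 2 of 7 bipolar cell markers were called lower (942 to 955 and 786 to 803 CPM) and 4 of 7 amacrine cell markers were called higher (987 to 1060 and 1540 to 1600 CPM). Their part in the members' fall was not tested. Transcripts of cells other than RGCs were thus in the sorted material.

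**Figure D4:**
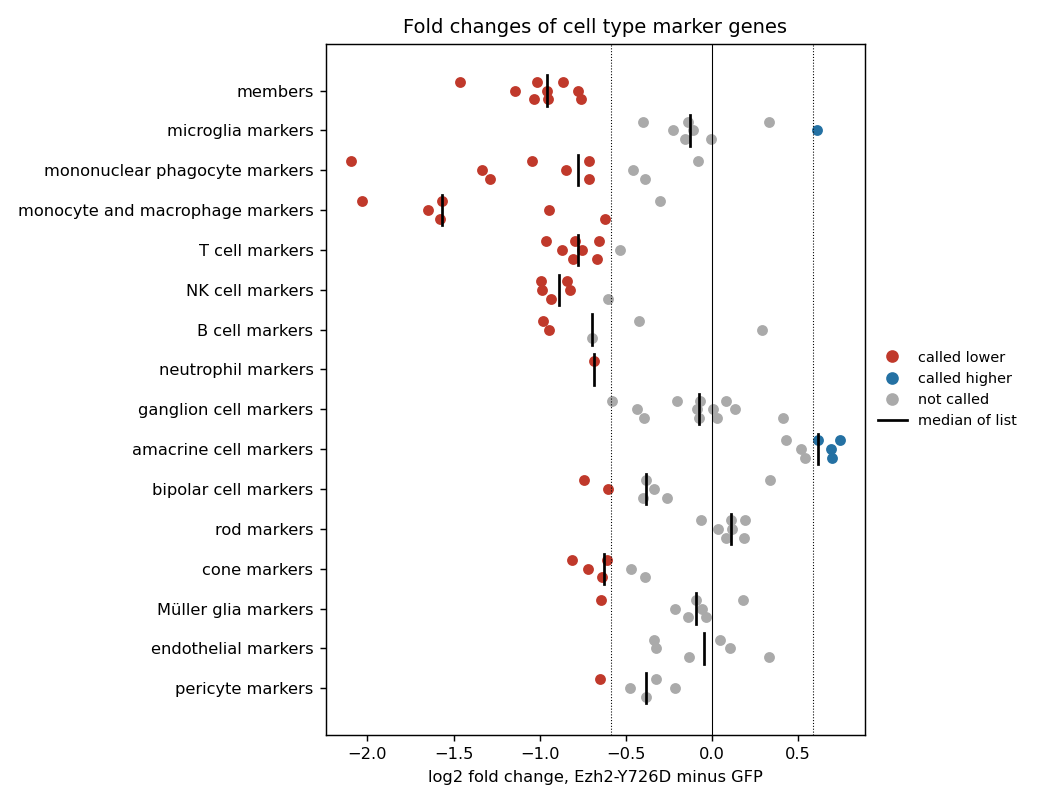
Log2 fold change (Ezh2-Y726D minus GFP) of the tested marker genes of each cell type, 1 point per gene, red for called lower, blue for called higher and grey for not called, with black bars at each list's median and dotted lines at a 1.5-fold change either way. Phagocyte, monocyte and macrophage, T cell and NK cell markers lie mostly to the left, microglia, ganglion cell and rod markers lie around 0, and the amacrine cell markers lie to the right with a median of 0.61.

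Set against phagocyte markers in the same library, which does not depend on scaling, the members differed less between groups than in CPM. Counts of the 5 receptor genes over those of the phagocyte markers were 0.105, 0.106 and 0.113 with GFP and 0.121, 0.127 and 0.131 with Ezh2-Y726D, a log2 difference of 0.22. For the 4 oxidase genes the ratio was 0.154, 0.154 and 0.153 with GFP and 0.155, 0.155 and 0.157 with Ezh2-Y726D, a difference of 0.02. In both cases the Ezh2-Y726D libraries were all higher (exact permutation 2-sided P = 0.1, the smallest possible). The oxidase difference did not hold at equal depth: with counts thinned to the shallowest library it was 0.006 (exact permutation 2-sided P = 0.8), and without Ezh2-Y726D replicate 3 it was 0.009. The denominator leans on Lyz2, lysozyme, which gave 45.1% to 47.2% of its counts with GFP and 23.3% to 25.2% with Ezh2-Y726D and itself fell by 2.10 on the log2 scale.

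Without Lyz2, a choice made after its level was seen, both ratios turned direction. The receptor ratio was then 0.191, 0.194 and 0.215 with GFP and 0.158, 0.169 and 0.172 with Ezh2-Y726D (log2 difference -0.26), and the oxidase ratio 0.281, 0.282 and 0.29 against 0.202, 0.208 and 0.206 (-0.47). Over microglia markers, also chosen after the data were seen, the receptor ratio fell from 0.384, 0.389 and 0.409 to 0.229, 0.237 and 0.243 (-0.74), and the oxidase ratio from 0.566, 0.565 and 0.554 to 0.293, 0.291 and 0.292 (-0.94). Each of these 4 ratios had groups that did not overlap, at the smallest P that the exact permutation test allows (2-sided P = 0.1). Relative to microglia markers the members were lower, and relative to phagocyte markers the direction depended on Lyz2.

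**Figure D5:**
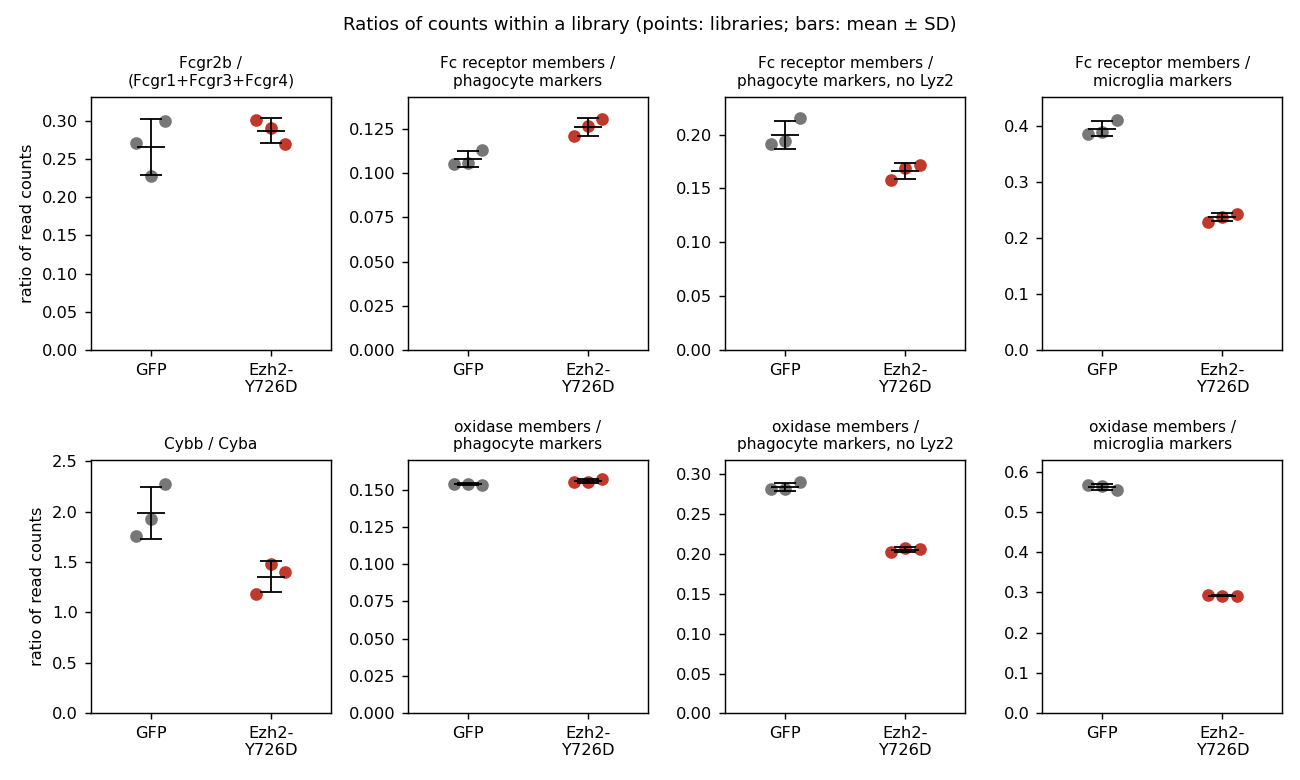
Ratios of read counts within each library, on axes from 0, with GFP in grey, Ezh2-Y726D in red and bars for mean ± SD of 3 libraries. The Fcgr2b ratio overlaps between groups, and the ratio of the members to phagocyte markers is slightly higher with Ezh2-Y726D with Lyz2 in the sum and lower without it.

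The genes whose profile over the 6 libraries was most like the members' mean, on log2(CPM + 1) and among 16044 genes with a mean of at least 1 CPM, were Scarf1 (Pearson's r = 0.9996), Tlr13 (0.9992), Arhgap30 (0.9989), Prkch (0.9988) and Plcb2 (0.9987). Scarf1, a scavenger receptor, went from 2.98 to 1.16 CPM, and Tlr13, a sensor of bacterial rRNA, from 15.4 to 8.33 CPM. Arhgap30 went from 48.3 to 26.7 CPM, Prkch from 32.5 to 22.3 CPM and Plcb2 from 12 to 7.76 CPM. The 6 points fall into the 2 groups, so these correlations describe the group difference and carry no P.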

How the data were processed

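For 6 RNA-Seq libraries from a stranded kit for total RNA, the authors deposited raw counts per gene as whole numbers. The submitters' processing notes name STAR 2.7.0d and GRCm38. The counting tool and its strand setting are not given in the sources used here. Symbols and coordinates were read from GENCODE vM21 (GRCm38), which held 32342 of the 32371 identifiers. All columns were mapped to samples by name.

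The counts were scaled by TMM (factors 0.647 to 1.31), filtered by filterByExpr (minimum count 10, total 15) and tested with edgeR's quasi-likelihood test (edgeR 4.0.16, R 4.3.3), with Benjamini-Hochberg adjustment over 18138 genes and a call required an adjusted P under 0.05 with over 1.5-fold change. The common BCV was 0.0442. A standard error is the log2 fold change over the root of its F statistic. Ratios within a library were compared by the exact permutation test, which cannot go under 0.1 for 3 libraries against 3. In simulated counts for 18138 genes with the libraries' means and sizes, 172 of 200 genes changed by a log2 fold of 1 were called (86%), with 5 unchanged genes. Counting intervals cover counting error only.

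The members and lists were chosen with earlier results of these data known. Named were every member, Ezh2, Thy1, list genes called and, of most marker lists, the highest gene and those at or under 3 counts in all libraries. Some further items are not reported here. Genes of like pattern were the 5 of highest correlation. P2ry12 and some uncalled list genes were named after their values were seen. Alternatives were RLE size factors, library totals with and without CT010467.1, DESeq2 1.42.0, other filters and fold thresholds, the replicate block, libraries left out and counts thinned to 4460732 per library.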

Additional observations from a re-analysis of the deposited data

How the results depend on the processing

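Each member was called lower in 14 of 15 alternatives, the exception being library totals, and the members' log2 fold changes stayed below 0 in all 15. Members called lower numbered 0 with library totals and 4 at a fold change over 2. Counts over all genes moved to 19 lower and 46 higher with library totals, 2463 and 2525 with no fold threshold and 309 and 134 at a fold over 2. The genes called higher numbered 282 with DESeq2 and 268 with at least 10 counts in every library. With library totals, the lists of adaptors, signalling genes, phosphatases, other oxidase genes, peroxide removal and other Fc receptors had 0 genes called lower, and the ligands 1. Of the other Fc receptors, 1 was called lower with DESeq2, with at least 10 counts in every library and after thinning, and 1 to 3 with 1 library left out (1 without GFP replicate 1). Of the ligands, 0 were called lower with DESeq2, and 1 with at least 10 counts and after thinning. The cause of these changes was not tested. The log2 difference of Fcer1g over its receptors ran from -0.3 to 0.018 with 1 library left out, reversed at 0.018 without GFP replicate 3, and was -0.383 after thinning.

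The labels do not say whether the replicate numbers pair the libraries. Deviations from the group means of same-numbered libraries correlated at 0.136, 0.051 and 0.0391. Each library correlated best with its own number, which is a hint from the data and not the design. With the replicate number as a block, all 9 members were called lower, with 982 lower and 421 higher genes in all. Depth limits most the genes with few counts in GFP replicates 2 and 3, which kept 5745352 and 4460732 counts outside CT010467.1. Without both of them, which leaves 1 GFP library assumed to vary like the Ezh2-Y726D group, all 9 members were called lower.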
